A study of Mus musculus with 12 samples.

Results

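The genes described here are 6 markers of club cells, the non-ciliated secretory cells of the airways: *Scgb1a1*, *Scgb3a1*, *Scgb3a2*, *Cyp2f2*, *Cbr2* and *Bpifa1*. They were chosen by symbol, and each symbol matched 1 gene among the 51825 genes of the deposited table of CPM, read counts scaled to the mapped reads of each library, and among the 16152 genes of the count table. Their levels were measured by RNAseq of whole lungs from C57BL/6 mice, with 3 libraries at each of 4 time-points. These were E15.5 and E18.5 before birth and P5 and P8 after it. The mice were wild type and untreated in every group. Female and male mice were used in the study, and the sex behind each library is not given in the sources used here. The replicates of a time-point were littermates, so litter and age cannot be told apart, and p-values measure the spread between littermates.

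Club cells line the conducting airways of the mouse, where they secrete small proteins into the airway fluid and carry enzymes that oxidize or reduce inhaled compounds. The secretoglobins are small secreted proteins that form disulphide-linked dimers, and *Scgb1a1*, also named club cell secretory protein, is the usual marker of the cell type. Club cells arise from NKX2-1-positive airway progenitors, and Notch signaling favours the secretory over the ciliated fate. Because RNA was taken from whole lungs, fewer cells of a type and less RNA per cell cannot be told apart at any level given below.

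The reads counted on genes ranged from 41337443 to 53901957 per library. Some libraries carried genes typical of other tissues. The squamous keratin *Krt13* was at 334 and 256 CPM in P8 replicates 1 and 2 and at 0.888 CPM in P8 replicate 3, and the thymocyte gene *Rag1* was at 77.8, 156 and 4.19 CPM in the same order. At E15.5, *Rag1* was at 11.97 CPM in replicate 2 and at 0.242 and 0.157 CPM in replicates 1 and 3. The heart muscle gene *Myh6* was at 196 and 172 CPM in E15.5 replicates 1 and 2 and at 5.84 CPM in replicate 3. Lung epithelial genes were present in all 12 libraries, with *Nkx2-1* between 136 and 237 CPM. In an alternative chosen after seeing the data, E15.5 replicate 2 and P8 replicates 1 and 2 were left out together. E15.5 replicate 1, which also carried *Myh6*, was kept, and P8 replicate 3 was then the single P8 library and was assumed to vary like the others. For the club cell genes and the other genes named as called from P5 to P8, the log2 fold change without these 3 libraries is given beside the value.

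The DNA upstream of the start site is shown for the 4 genes that RefSeq entries gave (build GRCm38.p6). All 4 were higher in every P5 library than in every E18.5 library, and their courses from P5 to P8 differed. Motifs of 3 families of lung regulators and the TATA box were searched in the 250 bases before each RefSeq start. The motif letters were TGTTTAC or TGTTTGC or TATTTAC or TATTTGC for the FOXA family, TCAAG for NKX2-1, and TTGCNNAA or TTNNGCAA for the C/EBP family, each on both strands. The TATA box was searched as TATAAA on the strand of the gene. Capitals mark the matches. The windows are chr11:49663345-49663594 on the + strand for *Scgb3a1*, chr2:154142630-154142879 on the + strand for *Bpifa1*, chr7:27119705-27119908 on the + strand for *Cyp2f2* and chr11:120732115-120732271 on the - strand for *Cbr2*. For *Cyp2f2* and *Cbr2* the last 46 and 93 bases of the searched window lie inside the Gencode gene, hold no match and are not printed.
Scgb3a1: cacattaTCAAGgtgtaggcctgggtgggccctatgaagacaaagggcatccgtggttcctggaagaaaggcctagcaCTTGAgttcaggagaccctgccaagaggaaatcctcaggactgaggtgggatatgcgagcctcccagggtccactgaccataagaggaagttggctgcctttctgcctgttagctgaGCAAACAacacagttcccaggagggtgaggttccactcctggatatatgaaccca
Bpifa1: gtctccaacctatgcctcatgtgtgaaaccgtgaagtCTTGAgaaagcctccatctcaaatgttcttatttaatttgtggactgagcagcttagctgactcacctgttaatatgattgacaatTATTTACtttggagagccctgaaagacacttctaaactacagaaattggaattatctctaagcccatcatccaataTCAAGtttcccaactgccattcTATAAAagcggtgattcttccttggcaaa
Cyp2f2: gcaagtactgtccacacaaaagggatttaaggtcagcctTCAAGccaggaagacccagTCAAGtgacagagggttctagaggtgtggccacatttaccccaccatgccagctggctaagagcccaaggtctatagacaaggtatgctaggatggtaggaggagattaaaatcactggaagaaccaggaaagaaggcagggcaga
Cbr2: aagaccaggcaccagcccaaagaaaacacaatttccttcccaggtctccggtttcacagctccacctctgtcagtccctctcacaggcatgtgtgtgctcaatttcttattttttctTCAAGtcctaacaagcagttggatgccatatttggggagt

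All 4 windows held the NKX2-1 letters, at bases -243 and -172 from the start in *Scgb3a1*, -213 and -51 in *Bpifa1*, -211 and -192 in *Cyp2f2* and -133 in *Cbr2*. The FOXA letters were found in *Scgb3a1* at base -55 and in *Bpifa1* at base -127. *Bpifa1* alone among the 4 had a TATA box, at base -29. The C/EBP letters were found in none of the 4 windows. Among 32851 RefSeq promoters of the same length, 35.9% held the NKX2-1 letters, 11.9% the FOXA letters, 9.56% the C/EBP letters and 7.59% the TATA box. *Bpifa1* also had the lowest GC content of the 4, 39.2%, against 53.6% in *Scgb3a1*, 51.6% in *Cyp2f2* and 55.6% in *Cbr2*. The matches describe the letters of these windows and say nothing of binding.

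*Scgb1a1* (ENSMUSG00000024653.2, chr19:9083636-9087958 in mm10, - strand, 3 exons, 476 exonic bases) was the most abundant of the 6 genes per length after birth. It was at 12.1, 11.3 and 12.3 CPM in the 3 libraries of E15.5 and at 12.3, 14.5 and 12.6 CPM in those of E18.5. At P5 it was at 3241, 3597 and 3878 CPM and at P8 at 4972, 5359.5 and 6029 CPM. The level thus stood near 12 CPM at both prenatal time-points, rose between E18.5 and P5, and was higher again at P8, with no overlap between neighbouring time-points. The mean went from 13.1 ± 1.21 CPM at E18.5 to 3572 ± 319 CPM at P5 (SD, n = 3), which is 272-fold. The log2 fold change was 8.17 (SE, the standard error, 0.11, edgeR FDR = 3.3e-13). Between P5 and P8 it was 0.59 (SE 0.082, edgeR FDR = 0.0015), past the FDR cutoff and short of the fold change cutoff of 1 on the log2 scale, and it was 0.73 (edgeR FDR = 0.0082) without the 3 libraries left out together. The prenatal log2 fold change of 0.15 was not past the FDR cutoff (edgeR FDR = 0.23). In P8 replicate 3, *Scgb1a1* took 0.603% of all mapped reads.

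*Scgb3a2* (ENSMUSG00000038791.14, chr18:43764289-43767399, + strand, 2 exons after overlapping exons of its 3 transcripts were merged) is a secretoglobin of the airway epithelium. It is detected early in lung development. Of the 6 genes, *Scgb3a2* was the only one called between the prenatal time-points. It was at 28.6, 23.2 and 20.5 CPM at E15.5 and at 75.1, 78.6 and 41.1 CPM at E18.5. Replicate 3 of E18.5 was the lowest of its time-point and still lay above all libraries of E15.5. The log2 fold change was 1.44 (SE 0.24, edgeR FDR = 0.0023). At P5 it was at 519, 797 and 759 CPM, and at P8 at 1016, 1262 and 898 CPM. The rise from E18.5 to P5 was 10.7-fold in the means (log2 fold change 3.49, standard error 0.25, edgeR FDR = 1.1e-07), the smallest of the 6 genes in that interval. Between P5 and P8 every later library lay above every earlier one, and the log2 fold change of 0.60 was not past the FDR cutoff (edgeR FDR = 0.085). Without the 3 libraries left out together it was 0.36 (edgeR FDR = 0.58).

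*Scgb3a1* (ENSMUSG00000064057.12, chr11:49663610-49665118, + strand, 4 merged exons) is the secretoglobin of the larger airways and submucosal glands. Among the secretoglobins, it differed most between the libraries of one time-point. Before birth it was at 0.775, 0.747 and 0.885 CPM at E15.5 and at 0.328, 0.211 and 0.385 CPM at E18.5. The prenatal libraries did not overlap, but the log2 fold change of -1.36 had a standard error of 1.59 and was not past the FDR cutoff (edgeR FDR = 0.57). At P5 it was at 8.82, 148 and 82.0 CPM, a range of 16.8-fold between littermates. At P8 it was at 293, 313 and 70.3 CPM, a range of 4.44-fold. Replicate 1 was the low library at P5 and replicate 3 the low library at P8, and P8 replicate 3 fell below P5 replicates 2 and 3. All 3 P5 libraries lay above all 3 E18.5 libraries, and the log2 fold change was 8.06 (SE 1.13, edgeR FDR = 3.6e-05). Between P5 and P8 the libraries overlapped, and the log2 fold change was 1.51 (SE 0.70, edgeR FDR = 0.15). It stayed between 0.97 and 2.31 with single libraries left out and was -0.18 (edgeR FDR = 0.94) without the 3 libraries left out together.

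**Figure D1:**
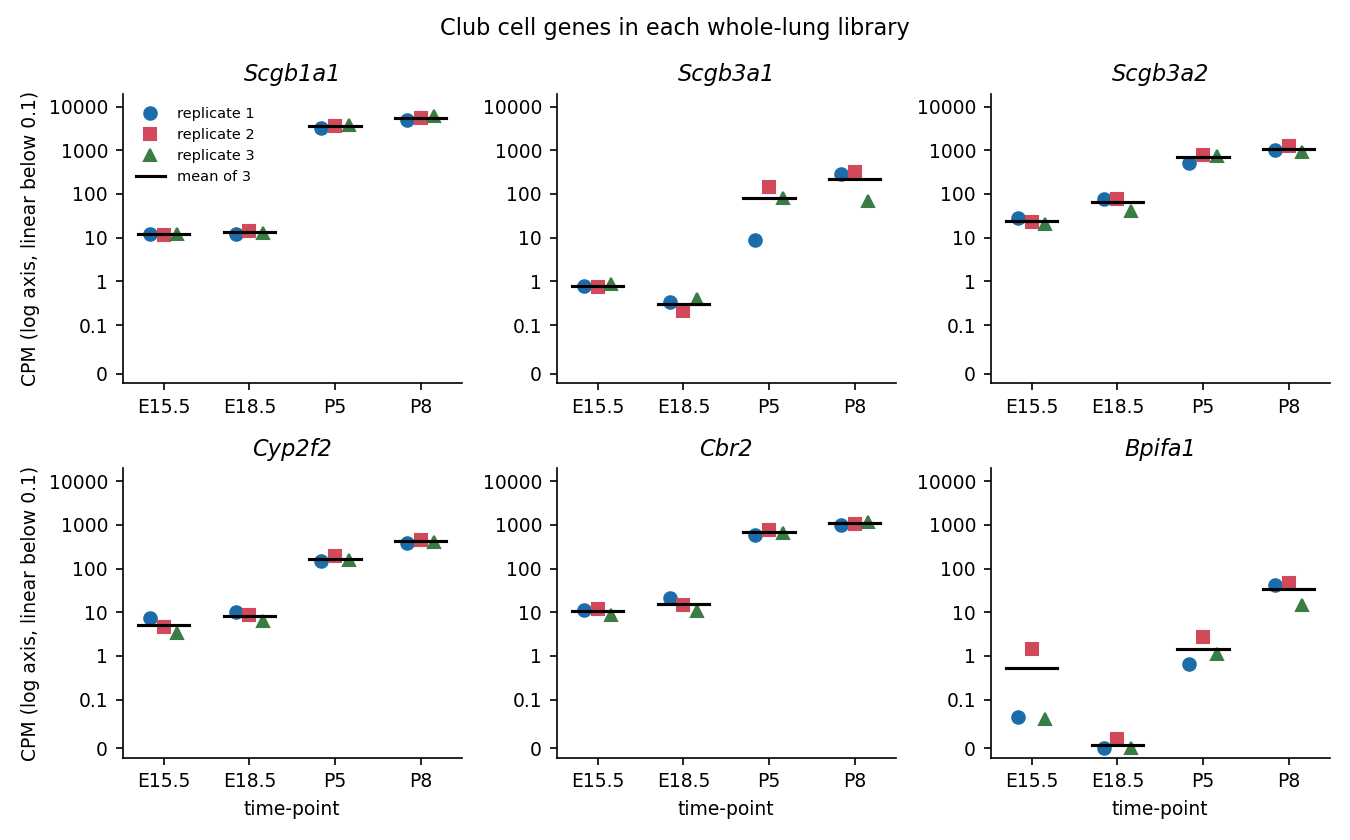
Level of each club cell gene in CPM (log axis, linear below 0.1) in the 12 libraries, by time-point, with replicate numbers as symbols and the mean of 3 as a line. All 6 genes were higher at P5 than at E18.5 in every library, *Scgb1a1* stayed near 12 CPM before birth, and *Scgb3a1* at P5 spread from 8.82 to 148 CPM.

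Per kilobase of exon, the scale on which levels of different genes were compared, the order of the club cell genes changed around birth. At E18.5 the mean levels per kilobase (± SD, n = 3) were 73.8 ± 23.5 CPM for *Scgb3a2*, 27.6 ± 2.53 CPM for *Scgb1a1*, 11.8 ± 4.13 CPM for *Cbr2* and 4.16 ± 1.02 CPM for *Cyp2f2*, and *Scgb3a1* and *Bpifa1* were under 1 CPM. No neighbours in this order overlapped. At P8 they were 11457 ± 1123 CPM for *Scgb1a1*, 1203 ± 211 CPM for *Scgb3a2*, 815 ± 80.8 CPM for *Cbr2*, 377 ± 225 CPM for *Scgb3a1*, 208 ± 16.6 CPM for *Cyp2f2* and 21.9 ± 11.05 CPM for *Bpifa1*. Here the libraries of *Scgb3a1* spanned those of *Cyp2f2*, so the order of this pair was not the same in all libraries. *Scgb1a1* divided by *Scgb3a2* was 0.780, 0.899 and 1.11 in the libraries of E15.5 and 0.304, 0.342 and 0.565 in those of E18.5. It was 11.5, 8.34 and 9.44 at P5 and 9.05, 7.85 and 12.4 at P8. *Scgb3a2* was thus above *Scgb1a1* in all 3 libraries of E18.5, and *Scgb1a1* above *Scgb3a2* in all 6 postnatal libraries. At E15.5 the order of the pair was not the same in all libraries. The order at E15.5 depends on the lengths used. These were 476 bases for *Scgb1a1* and 880 bases, merged over 3 transcripts, for *Scgb3a2*. *Scgb3a1* made up 5.11%, 5.27% and 5.72% of the *Scgb1a1* level at E15.5 and 2.12%, 1.15% and 2.44% at E18.5. After birth the same share was 0.217%, 3.27% and 1.68% at P5 and 4.69%, 4.64% and 0.929% at P8. The share was within a narrow range at E15.5. At E18.5 it ran from 1.15% to 2.44% and rested on 16, 11 and 21 reads of *Scgb3a1*. It spread over more than an order of magnitude at P5.

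**Figure D2:**
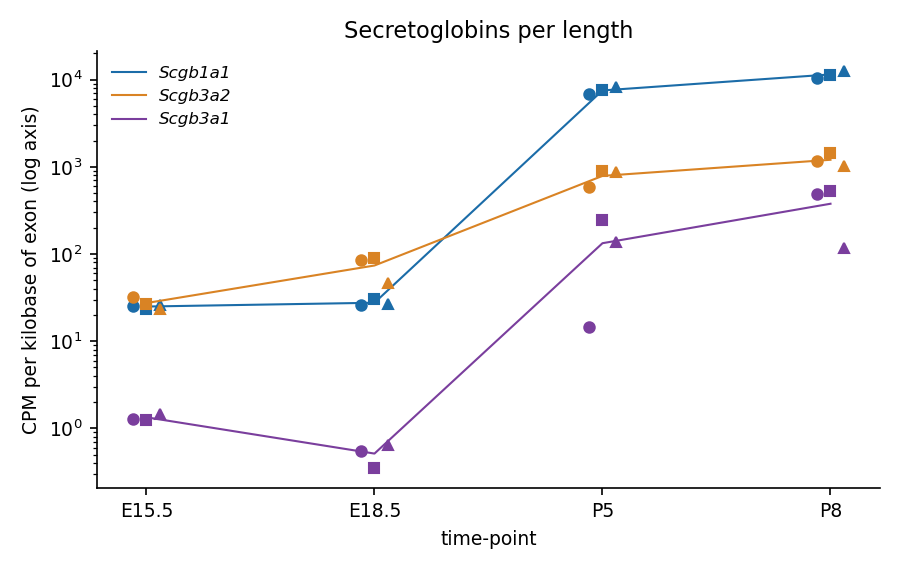
The 3 secretoglobins in CPM per kilobase of exon (log axis) by time-point, with each library as a symbol (circle, square and triangle for replicates 1, 2 and 3) and lines through the means. *Scgb3a2* lay above *Scgb1a1* at E18.5 and below it at P5, where *Scgb1a1* divided by *Scgb3a2* was between 8.34 and 11.5.

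*Cyp2f2* (ENSMUSG00000052974.8, chr7:27119909-27133660, + strand, 11 merged exons) encodes the cytochrome P450 that activates naphthalene in mouse club cells. It shares exonic bases with the antisense gene *Gm15883*, and whether the counting used strand is not given in the sources used here. It was at 7.44, 4.68 and 3.34 CPM at E15.5 and at 10.4, 8.58 and 6.28 CPM at E18.5, and the libraries of these time-points overlapped. The prenatal log2 fold change of 0.70 was not past the FDR cutoff (edgeR FDR = 0.055). It reached 1.07 (edgeR FDR = 0.0098) when E15.5 replicate 1, the highest of its time-point, was left out. At P5 it was at 148, 193 and 161 CPM and at P8 at 389, 456 and 416 CPM. Both postnatal steps were free of overlap, and the log2 fold changes were 4.40 around birth (SE 0.24, edgeR FDR = 1.6e-08) and 1.31 between P5 and P8 (SE 0.21, edgeR FDR = 0.0031). Without the 3 libraries left out together, the change from P5 to P8 was 1.29 (edgeR FDR = 0.038). With *Bpifa1*, *Cyp2f2* was called higher in both intervals that end after birth.

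*Cbr2* (ENSMUSG00000025150.10, chr11:120729489-120732114, - strand, 8 merged exons) encodes a carbonyl reductase that is abundant in mouse lung. It was at 11.3, 12.01 and 8.56 CPM at E15.5 and at 21.5, 14.5 and 10.7 CPM at E18.5, where replicate 3 fell within the range of E15.5. This change of 0.56 on the log2 scale was not past the FDR cutoff (edgeR FDR = 0.071). At P5 *Cbr2* was at 601, 748 and 666 CPM, 43.1-fold above E18.5 in the means (log2 fold change 5.51, standard error 0.24, edgeR FDR = 2.7e-09). At P8 it was at 983, 1067 and 1196 CPM, above all P5 libraries. The next step, to P8, was 0.67 on the log2 scale (SE 0.19, edgeR FDR = 0.034), short of the fold change cutoff. Without the 3 libraries left out together it was 0.81 (edgeR FDR = 0.13), and the FDR also missed the cutoff when any single P5 or P8 library was left out (edgeR FDR = 0.068 to 0.11).

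*Bpifa1* (ENSMUSG00000027483.7, chr2:154142880-154149219, + strand, 10 merged exons) encodes SPLUNC1, an antimicrobial protein secreted in the upper airways. It had 4, 73 and 3 reads in the libraries of E15.5, which is 0.0646, 1.44 and 0.0590 CPM. At E18.5 it had 0, 1 and 0 reads, and a count of 0 allows a level of up to 0.0616 CPM in replicate 1 and 0.0549 CPM in replicate 3. Most prenatal reads were thus in E15.5 replicate 2, the library that also held *Rag1* at 11.97 CPM and the basal cell keratin *Krt5* at 14.9 CPM, and their part in the result was not tested. Pooled over libraries, E15.5 was 76.0-fold above E18.5 (95% exact interval 13.3 to 3040, for counting error only). The test over libraries gave a prenatal log2 fold change of -5.85 (edgeR FDR = 0.063), and -2.87 (edgeR FDR = 0.43) without E15.5 replicate 2.

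After birth *Bpifa1* was at 0.642, 2.68 and 1.10 CPM at P5 and at 41.2, 46.1 and 14.4 CPM at P8. The ratio of pooled levels of P5 and E18.5 was 215 (95% exact interval 38.2 to 8524, for counting error only), with 237 reads against 1, and the edgeR FDR was 0.0020. The step from P5 to P8 was the largest of the 6 genes in that interval, 22.97-fold in the means (log2 fold change 4.54, standard error 0.81, edgeR FDR = 0.0051). P8 replicate 3, the lowest of its time-point, was still above the highest P5 library. Without the 3 libraries left out together the log2 fold change was 3.28 (edgeR FDR = 0.019).

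Between the prenatal time-points, 1 of the 6 club cell genes was called higher, where a call is an absolute log2 fold change above 1 with an FDR under 0.05. The background was 1.59% of the 15994 genes tested called higher and 1.46% called lower. With the FDR cutoff alone 1 of the 6 was higher, beside 11.6% of all genes. In 2 of the 6, *Scgb1a1* and *Scgb3a2*, every E18.5 library lay above every E15.5 library, as in 18.3% of all genes. The median log2 fold change of the 6 was 0.36, beside -0.0084 over all genes tested.

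From E18.5 to P5, all 6 were called higher, beside 17.5% of all genes called higher and 9.34% called lower. All 6 were also higher with the FDR cutoff alone, beside 35.4% of all genes, and every P5 library lay above every E18.5 library in all 6, as in 34.4% of all genes. Their median log2 fold change was 6.48, beside -0.0024 over all genes. *Scgb3a1* and *Bpifa1* reached the filter for testing in 1 prenatal library each, so they entered the test through the postnatal libraries in which they were high. The other 4 genes reached it in all 12 libraries, with log2 fold changes from 3.49 to 8.17.

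From P5 to P8, 2 of the 6 were called higher, *Cyp2f2* and *Bpifa1*, beside 2.88% of all genes called higher and 0.0875% called lower. With the FDR cutoff alone *Scgb1a1* and, when all libraries were used, *Cbr2* joined them, which gave 4 of 6 beside 9.75% of all genes. Every P8 library lay above every P5 library in 5 of the 6, all but *Scgb3a1*, as in 20.8% of all genes. The median log2 fold change was 0.99, beside -0.0012 over all genes. The counts of calls were again 1, 6 and 2 of 6 in the 3 intervals without the 3 libraries left out together.

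**Figure D3:**
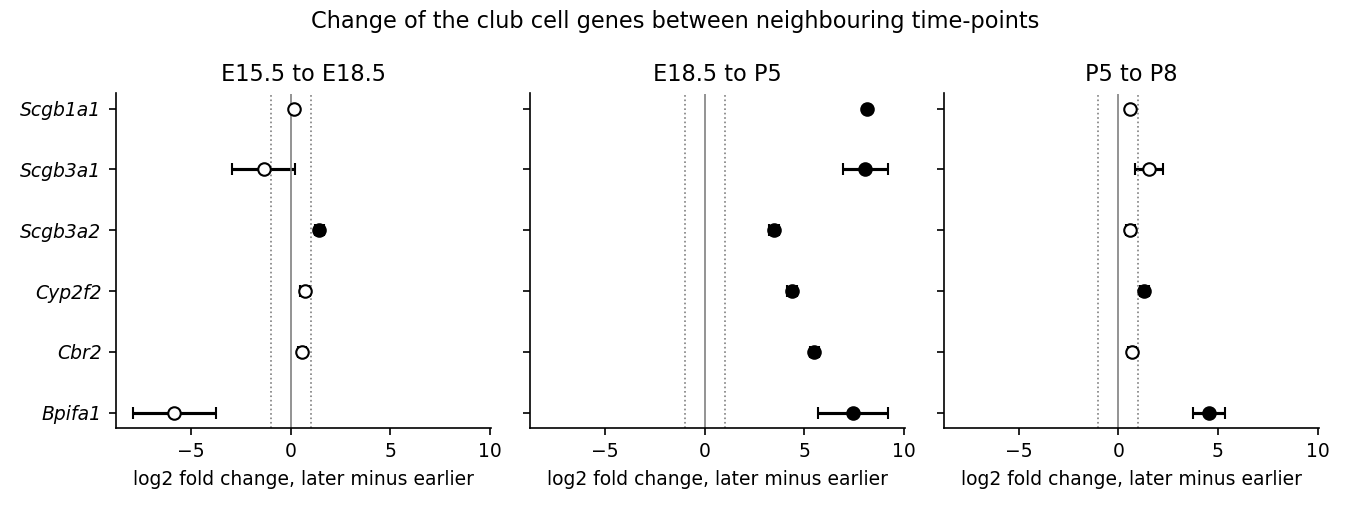
Log2 fold change of each club cell gene between neighbouring time-points, later minus earlier, with the standard error as a bar. Filled points are calls and dotted lines mark the fold change cutoff. The E18.5 to P5 values run from 3.49 to 8.17, and *Scgb3a1* and *Bpifa1* have the widest bars.

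The spread between littermates set the genes apart. Measured as edgeR's biological coefficient of variation over the 12 libraries, it was 0.0860 for *Scgb1a1*, under the median of 0.108 over all genes. It was 0.175 for *Cbr2*, 0.194 for *Cyp2f2* and 0.198 for *Scgb3a2*, and it was 0.585 for *Scgb3a1* and 0.804 for *Bpifa1*. Of all genes tested, 98.3% had a smaller value than *Scgb3a1* and 99.3% a smaller value than *Bpifa1*. The value of *Bpifa1* also covers its 4, 73 and 3 reads at E15.5. After birth the highest library over the lowest was 4.18 at P5 and 3.20 at P8 for *Bpifa1*, under the 16.8 and 4.44 of *Scgb3a1*. The deviations of *Scgb3a1* and *Bpifa1* from their time-point means correlated with Pearson r = 0.69 over the 12 libraries. The corresponding values were 0.75 for *Cyp2f2* and *Cbr2*, 0.77 for *Cyp2f2* and *Scgb3a2*, and between -0.40 and 0.30 for *Scgb1a1* with the other 5 genes. These values are descriptions over 12 libraries that share their time-points and litters in groups of 3.

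The genes whose deviations were nearest to those of *Scgb3a1* among 15255 genes were *Reg3g* (r = 0.97), an antimicrobial lectin, *Muc5b* (r = 0.97), a gel-forming mucin of airway mucus, and *Tff2* (r = 0.97), a trefoil factor. *Muc5b* was at 1.96, 31.1 and 13.2 CPM at P5 and at 64.5, 73.2 and 14.7 CPM at P8. *Reg3g* was at 2.78, 83.6 and 32.3 CPM at P5 and at 204, 206 and 25.7 CPM at P8. *Tff2* was at 0.610, 8.51 and 4.55 CPM at P5 and at 27.7, 31.1 and 5.52 CPM at P8. In all 3 genes, as in *Scgb3a1* and *Bpifa1*, P5 replicate 1 was the lowest and P5 replicate 2 the highest at P5. P8 replicate 3 was the lowest at P8. The 3 genes were selected by their likeness to *Scgb3a1* in these deviations, so their shared order follows from the selection. By level, the genes nearest to *Scgb3a1* were *Il27ra* (r = 0.99), *Reg3g* (r = 0.98) and *Muc5b* (r = 0.98), and those nearest to *Bpifa1* were *Cyp2a5* (r = 0.98), *Fam83e* (r = 0.98) and *Tmc5* (r = 0.97). By deviation, *Cct5*, *Dok2* and *Slc18a2* were nearest to *Bpifa1* (r = 0.94 to 0.95).

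Cartilage marks the large airways in the lung, and 6 of 8 cartilage markers were lowest in P5 replicate 1 and in P8 replicate 3, *Matn1* and *Snorc* among them at under 0.3 CPM. The exceptions were *Comp*, lowest in P5 replicate 2, and *Hapln1*, which was at 19.99, 19.84 and 19.03 CPM at P5 and at 11.4, 13.4 and 13.4 CPM at P8. *Col9a1*, a cartilage collagen, was at 0.209, 2.70 and 0.920 CPM at P5 and at 6.10, 8.27 and 0.230 CPM at P8. The summed level of 8 cartilage markers was 26.2, 37.8 and 29.3 CPM at P5 and 95.3, 136 and 20.7 CPM at P8. The squamous markers did not have this order at P5, where 5 of them summed to 1.67, 1.20 and 1.53 CPM, and were at 827, 632 and 5.08 CPM at P8. The part of cartilage-bearing airway and of other tissues in the levels of *Scgb3a1* and *Bpifa1* was not tested. All 6 club cell genes were lowest in P5 replicate 1 among the P5 libraries. At P8, *Scgb3a2* was also lowest in replicate 3, whereas *Scgb1a1* and *Cbr2* were highest there and *Cyp2f2* lay between the other libraries.

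**Figure D4:**
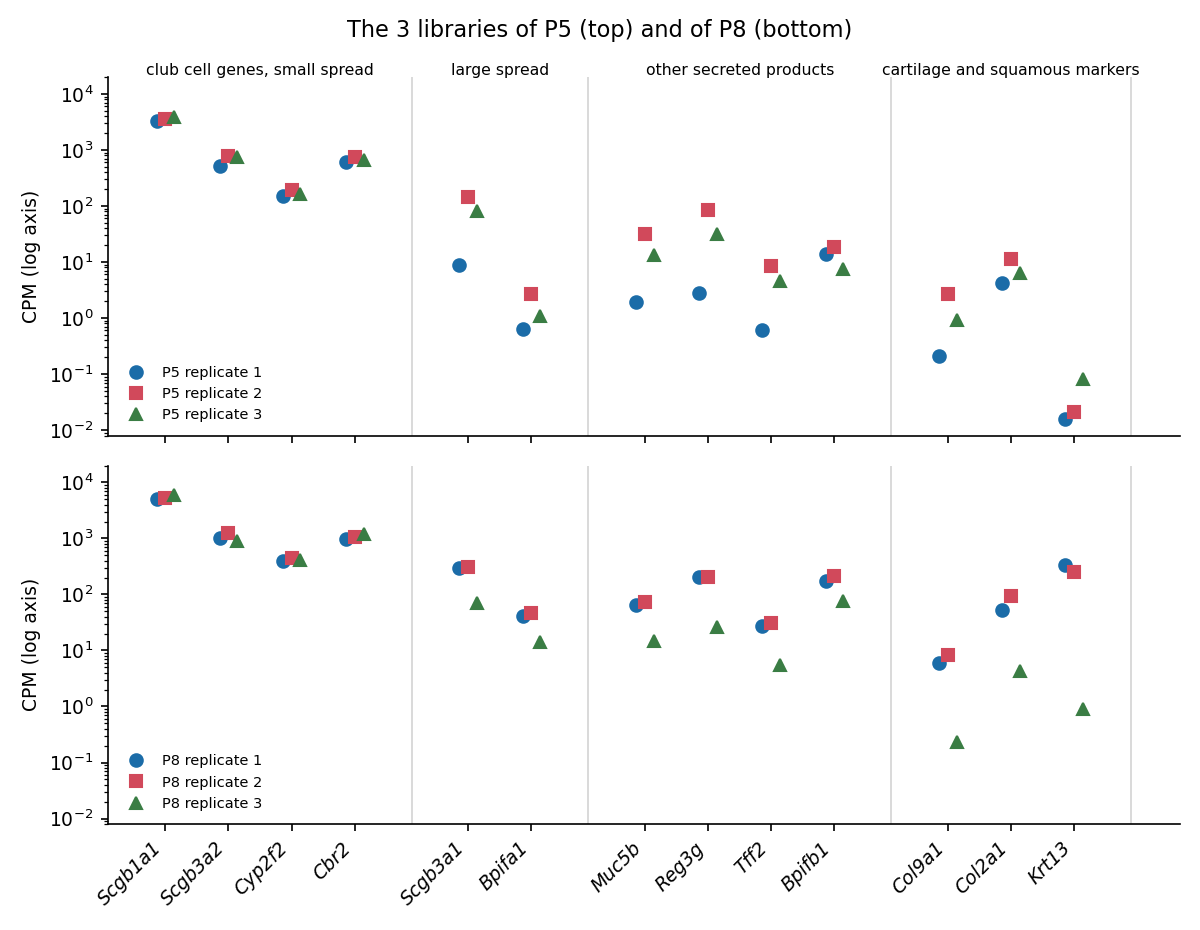
Level in CPM (log axis) of the 6 club cell genes, 4 other secreted products and 3 markers of cartilage or squamous epithelium in the P5 libraries (top) and the P8 libraries (bottom), 1 symbol per replicate. *Scgb3a1*, *Bpifa1*, *Muc5b*, *Reg3g*, *Tff2* and *Col9a1* were lowest in P5 replicate 1 and P8 replicate 3, while *Scgb1a1* stayed between 3241 and 3878 CPM at P5. *Muc5b*, *Reg3g* and *Tff2* were selected by their likeness to *Scgb3a1*. *Bpifb1* was lowest in replicate 3 at both time-points.

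By level over the 12 libraries, the nearest genes to *Scgb1a1* were *Rab11fip1*, *C7* and *Wnt3a* (r = 0.998 to 0.999), and those to *Cbr2* were *Pof1b*, *Nt5e* and *Traf1* (each r = 0.998). *Anxa11*, *2610028H24Rik* and the ciliated cell gene *Ccdc153* were nearest to *Cyp2f2* (r = 0.996 to 0.998), and *Atp2a3*, *Cavin1* and *Ceacam1* to *Scgb3a2* (each r = 0.996). Many genes share the step between prenatal and postnatal libraries, and these values rest on that step. By deviation from the time-point means, *Nr5a2*, *Zfp46* and *Hace1* were nearest to *Scgb1a1* (r = 0.93 to 0.96), *1700028P14Rik*, *Tst* and *Ino80b* to *Scgb3a2* (r = 0.93 to 0.95), *Dnaic2*, *Mmrn2* and *Ypel2* to *Cyp2f2* (r = 0.93 to 0.95), and *Atoh8*, *1810010H24Rik* and *Gm13456* to *Cbr2* (r = 0.94 to 0.97). *Dnaic2*, which encodes a dynein chain of motile cilia, was at 5.80, 7.49 and 5.92 CPM at P5 and at 15.2, 19.1 and 14.9 CPM at P8.

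Of 16 other secreted products of airway secretory cells 15 were tested, and 3, 15 and 7 were called higher in the intervals E15.5 to E18.5, E18.5 to P5 and P5 to P8, with none called lower. Over all genes, 1.59%, 17.5% and 2.88% were called higher. Only 3 of the 15, *Lypd2*, *Hp* and *Wfdc2*, reached the filter for testing in 3 prenatal libraries, and the other 12 entered the test through the postnatal libraries in which they were high, so the count of 15 from E18.5 to P5 is largely set by the filter. The log2 fold changes of those 3 in that interval were between 1.48 and 4.01. The median log2 fold changes of all 15 genes tested were 0.14, 4.90 and 1.57, beside medians over all genes of -0.0084, -0.0024 and -0.0012. Before birth, *Hp*, which encodes haptoglobin, was called higher (log2 fold change 1.47, edgeR FDR = 0.0023), as were *Lypd2* (1.18, edgeR FDR = 0.025) and the further secretoglobin *Scgb1c1* (edgeR FDR = 0.041). *Scgb1c1* had no read at E15.5 and 13 reads at E18.5, at 0.123, 0 and 0.128 CPM, so the libraries overlapped at 0 and the call rests on E18.5 replicates 1 and 3. Pooled over libraries it was at least 4.56-fold higher at E18.5, against 3 reads over the group, and it was not called without the 3 libraries left out together (edgeR FDR = 0.095).

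From E18.5 to P5 the highest changes in this list were those of *Tff2* (log2 fold change 7.40, edgeR FDR = 1.7e-04) and *Lcn2*, the siderophore-binding lipocalin (7.10, edgeR FDR = 3.2e-09). The lowest were those of *Lypd2* (1.48, edgeR FDR = 0.0011) and the protease inhibitor *Wfdc2* (1.54, edgeR FDR = 1.4e-08). In the last interval the highest were *Ltf*, which encodes lactotransferrin (3.73, edgeR FDR = 0.0079; 0.62, edgeR FDR = 0.62, without the 3 libraries), and *Bpifb1*, a relative of *Bpifa1* (3.52, edgeR FDR = 3.6e-04; 2.51, edgeR FDR = 0.0078, without them). *Bpifb1* was at 13.8, 18.6 and 7.63 CPM at P5 and at 171, 215 and 77.2 CPM at P8. The lowest calls were the chitinase gene *Chia1* (1.01, edgeR FDR = 0.0068) and *Lypd2* (1.04, edgeR FDR = 0.038), at 1.18 (edgeR FDR = 0.031) and 0.62 (edgeR FDR = 0.44) without them. The mucins *Muc5b* and *Muc5ac* were called higher from E18.5 to P5, by 5.21 (edgeR FDR = 4.8e-04) and 2.70 (edgeR FDR = 9.8e-04). Neither was called from P5 to P8, where the log2 fold changes were 1.73 (edgeR FDR = 0.13) and 0.91 (edgeR FDR = 0.23). In RNA of whole lungs, the cells that gave the reads of *Lcn2* and *Ltf* cannot be told. The paper describes lungs after birth as richer in neutrophils and other immune cells. The part of such cells in the levels of this list was not tested. Without the 3 libraries left out together, *Bpifb1* and *Chia1* were the 2 genes of the list called from P5 to P8, instead of 7.

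Of 21 enzymes of xenobiotic metabolism that club cells are known for, 1, 19 and 10 were called higher and 1, 1 and 0 lower in the 3 intervals, with median log2 fold changes of 0.18, 2.84 and 1.02. Of these enzymes, 9 entered the test through the postnatal libraries, and of the other 12, 10 were called higher and 1 lower from E18.5 to P5, beside 17.5% and 9.34% of all genes. The exceptions from E18.5 to P5 were *Aldh1a7*, a close paralog of *Aldh1a1* that fell from 182 ± 2.38 to 69.0 ± 4.06 CPM (log2 fold change -1.31, edgeR FDR = 6.0e-09), and the glutathione transferase *Gsta4*, which was not called. The sulfotransferase *Sult1d1* had no read at E18.5 and was at least 48.4-fold higher at P5, against 3 reads over the group. The lowest call upward was *Por* (log2 fold change 1.03, edgeR FDR = 2.8e-08), the reductase that passes electrons to *Cyp2f2* and other cytochromes P450. Before birth *Fmo2* was called higher (1.48, edgeR FDR = 0.0023) and *Gsta3* lower (-1.35, edgeR FDR = 0.019, and edgeR FDR = 0.086 without the 3 libraries).

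In the last interval the highest changes among the enzymes were *Cyp2a5* (log2 fold change 2.62, edgeR FDR = 0.012), whose reads may be split with a near-identical copy, and *Gsto1* (2.61, edgeR FDR = 0.0050). They were at 1.46 (edgeR FDR = 0.29) and 0.53 (edgeR FDR = 0.038) without the 3 libraries. *Gsto1* was at 52.2, 62.0 and 56.6 CPM at P5 and at 508, 454 and 83.4 CPM at P8, so it had the same low library as *Scgb3a1*. The lowest were *Aldh1a1* (1.04, edgeR FDR = 3.6e-04) and *Cyp2s1* (1.11, edgeR FDR = 0.0021), at 0.96 (edgeR FDR = 0.011) and 1.12 (edgeR FDR = 0.032) without the 3 libraries. *Cyp2s1* was at 41.5, 44.3 and 37.9 CPM at P5 and at 82.6, 97.3 and 91.2 CPM at P8, without such a library. *Cyp2s1* was the 1 enzyme of 21 called without the 3 libraries.

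**Figure D5:**
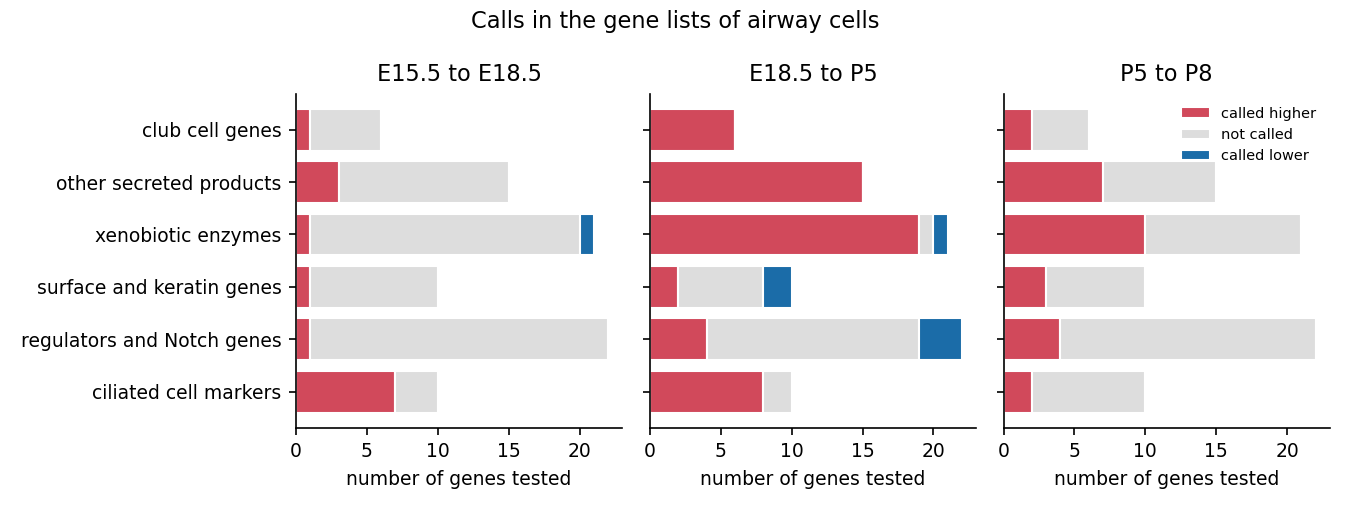
Number of genes tested in each list of airway cell genes that were called higher, not called or called lower in the 3 intervals. From E18.5 to P5, all 6 club cell genes, all 15 other secreted products and 19 of 21 xenobiotic enzymes were called higher, beside 2 of 10 surface and keratin genes, 4 of 22 regulators and 17.5% of all genes. Of the genes tested, 2 club cell genes, 12 secreted products and 9 enzymes entered the test through the postnatal libraries in which they were high. Their calls in this interval are thus largely set by the filter.

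Of 10 surface and keratin genes of airway secretory cells, 1, 2 and 3 were called higher and 0, 2 and 0 lower in the 3 intervals. The shares of all genes were 1.59%, 17.5% and 2.88% called higher and 1.46%, 9.34% and 0.0875% lower, so with 10 genes the counts around birth are near the background, and the median log2 fold change there was 0.020. *Gabrp*, a subunit of a GABA receptor, rose by 6.00 (edgeR FDR = 1.3e-08) and *Upk3a*, a uroplakin that marks a club cell subset, by 1.60 (edgeR FDR = 0.0033). *Cldn10*, a tight junction claudin, fell by 1.40 (edgeR FDR = 1.1e-06) and *Cckar*, a cholecystokinin receptor, fell by 1.11 (edgeR FDR = 4.0e-08). *Cldn10* had been at 36.2, 31.9 and 27.6 CPM at E18.5 and was at 10.3, 11.2 and 12.7 CPM at P5. *Upk3a* was also called before birth (log2 fold change 1.39, edgeR FDR = 0.037). The calls between P5 and P8 were the keratins *Krt15* (4.08, edgeR FDR = 0.0066) and *Krt19* (1.07, edgeR FDR = 7.2e-04) and *Gabrp* (1.28, edgeR FDR = 0.0051). Their values were 0.51 (edgeR FDR = 0.57), 0.82 (edgeR FDR = 0.030) and 1.25 (edgeR FDR = 0.041) without the 3 libraries. *Krt15* was at 171, 149 and 9.42 CPM at P8, with the squamous markers, and *Gabrp* was the 1 gene of 10 called without the 3 libraries.

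Of 22 transcription factors and Notch genes of airway secretory cells, 1, 4 and 4 were called higher and 0, 3 and 0 lower. Around birth the counts are near the background of 17.5% higher and 9.34% lower, and from P5 to P8 the background was 2.88% higher. All 22 reached the filter in 3 prenatal libraries, with median log2 fold changes of 0.23, -0.047 and 0.22. From E18.5 to P5, *Tfcp2l1* (log2 fold change 2.27, edgeR FDR = 1.4e-07), the Notch target *Hey1* (1.89, edgeR FDR = 2.8e-07) and *Cebpa* (1.47, edgeR FDR = 1.6e-06), a C/EBP factor also expressed in alveolar epithelium, were called higher. *Foxa3* fell by 3.98 (edgeR FDR = 2.6e-05) and *Sox2*, the factor of proximal airway progenitors, fell by 1.30 (edgeR FDR = 3.1e-05). *Sox2* was at 10.98, 9.09 and 10.6 CPM at E18.5 and at 3.15, 4.23 and 4.37 CPM at P5.

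*Nkx2-1*, which is required for lung identity, and *Foxa2*, its partner in airway gene expression, were lower at P5 in every library, with log2 fold changes of -0.54 (edgeR FDR = 1.4e-04) and -0.53 (edgeR FDR = 1.6e-05), short of the fold change cutoff. *Spdef*, the goblet cell factor, changed by -0.24 (edgeR FDR = 0.52). At P8 compared with P5, *Foxa3* (1.81, edgeR FDR = 0.039), *Sox2* (1.58, edgeR FDR = 5.8e-04), *Elf3* (1.14, edgeR FDR = 0.013) and *Spdef* (1.03, edgeR FDR = 0.048) were called higher. Their values were 0.83 (edgeR FDR = 0.61), 1.20 (edgeR FDR = 0.016), 0.54 (edgeR FDR = 0.37) and 0.78 (edgeR FDR = 0.39) without the 3 libraries, where *Sox2* was the 1 gene of 22 called. *Nkx2-1*, *Foxa2* and *Cebpa* changed by 0.026, 0.18 and 0.083 in that interval, none past the FDR cutoff (edgeR FDR = 0.87, 0.092 and 0.72). Before birth *Tfcp2l1* was called higher (1.16, edgeR FDR = 0.0016). *Sox2* (-0.49, edgeR FDR = 0.061), *Cebpa* (0.43, edgeR FDR = 0.051), *Nkx2-1* (0.22, edgeR FDR = 0.091), *Foxa2* (-0.12, edgeR FDR = 0.24) and *Spdef* (0.11, edgeR FDR = 0.83) were not past the FDR cutoff before birth.

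Markers of the other lung epithelial cells were read beside the club cell genes. Of 10 ciliated cell markers, 7, 8 and 2 were called higher and none lower in the 3 intervals, beside 1, 6 and 2 of the 6 club cell genes. Over all genes, 1.59%, 17.5% and 2.88% were called higher and 1.46%, 9.34% and 0.0875% lower. Of the 10 ciliated cell markers, 4 did not reach the filter for testing in 3 prenatal libraries. Of the other 6, 4 were called higher from E18.5 to P5. Of 7 AT2 markers 6, 7 and 0 were called higher and of 5 AT1 markers 1, 5 and 0, with none called lower. The 5 general epithelial markers had 0, 0 and 0 calls upward and 0, 1 and 0 downward. Their summed level was 610.1 to 745 CPM before birth and 414 to 624 CPM after it. The summed level of the 6 club cell genes was 45.7 to 60.3 CPM at E15.5, 71.1 to 120 CPM at E18.5, 4519 to 5548 CPM at P5 and 7695 to 8624 CPM at P8.

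Of 4 basal cell markers, 0, 1 and 3 were called higher and 1, 1 and 0 lower, and their sum was 39.6, 36.1 and 3.11 CPM at P8. Of 6 cartilage markers tested, 0, 0 and 3 were called higher and 0, 4 and 0 lower. Of 6 thymus markers tested 0, 2 and 6 were called higher, of 3 squamous markers tested 0, 1 and 3, and of 1 thyroid marker tested 0, 1 and 0, with none lower. The 3 heart markers had 3 calls downward from E15.5 to E18.5 and none later. Over all genes, 1.59%, 17.5% and 2.88% were called higher and 1.46%, 9.34% and 0.0875% lower. The filter was not reached in 3 prenatal libraries by 2 basal, 2 cartilage, 5 thymus, 2 squamous, 1 thyroid and 1 heart marker of those tested. These entered the test only with postnatal libraries in which they were high. With all libraries, the median log2 fold changes from P5 to P8 were 4.50 (thymus), 8.24 (squamous), 3.47 (basal) and 2.55 (cartilage). Without the 3 libraries left out together, the values of single genes ran from -0.20 to 3.53 (thymus) and from 0.69 to 4.36 (squamous). They ran from -0.65 to 1.65 (basal) and from -2.43 to 0.95 (cartilage). The parts of these tissues in the levels of the club cell genes were not tested. *Scgb1a1* and *Cbr2* were higher in P8 replicate 3, where squamous and thymus markers summed to 5.08 and 12.1 CPM, than in the replicates where they summed to 632 CPM or more and 144 CPM or more. At P8 the AT1 markers summed to 1533, 1396 and 1772 CPM and the AT2 markers to 16019, 14975 and 17924 CPM, also highest in replicate 3. The general epithelial markers were lowest there, at 575, 624 and 560 CPM. The cause of these orders was not tested.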

How the data were processed

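RNA from whole mouse lungs was extracted by the authors with a column kit from snap-frozen tissue, made into TruSeq libraries and sequenced. The authors aligned the reads to mm10 with TopHat2 2.1.1 and Bowtie2 2.3.4, and counted them on Gencode vM14 genes with HTSeq 0.10.0, per the labels and the study's methods. The deposited count table holds whole, unnormalized read counts of 16152 expressed genes. The deposited CPM table holds the counts of 51825 genes scaled to the mapped reads of each library. All CPM values above 0 (100% within 0.01 reads) were whole reads, which gave 48436716 to 62279460 mapped reads per library. Symbols, exons and lengths came from Gencode vM21 (GRCm38). Overlapping exons of all transcripts of a gene were merged before they were counted and measured.

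Differences were tested on the deposited counts with edgeR 4.0.16 (R 4.3.3) by the quasi-likelihood test with TMM normalization, in one fit of 12 libraries by time-point over 15994 genes with at least 1 CPM of counted reads in at least 3 libraries. Calls needed an absolute log2 fold change above 1 and a Benjamini-Hochberg FDR under 0.05. The fit was tested on simulated data with known changes. Intervals and floors of 3 reads cover counting error only. No library was a copy of another, since counts of replicates differed by more than the sampling noise. Likeness of pattern was Pearson's r of log2(CPM + 1), or of its deviations from time-point means, among 15255 genes with a mean of at least 1 CPM. Of the airway secretory lists, the 2 highest and 2 lowest fold changes among called genes were named, with *Muc5b*, *Muc5ac*, *Bpifb1*, *Nkx2-1*, *Foxa2*, *Sox2*, *Spdef* and *Cebpa* in every case; some results that this rule or the marker lists cover are not reported here. Further genes named, among them the markers of other tissues, were chosen after their values were seen. The club cell genes and all lists were chosen with earlier results of these data known. Alternatives were library size in place of TMM, DESeq2 1.42.0, limma 3.58.1 on log2(CPM + 1), no filter, only the libraries compared, a replicate block, and each library left out. The FDR cutoff alone was also applied to the main test. The table of splicing values was not used here, because its events are not paired with these genes' names. Plots were drawn with matplotlib 3.10.9.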

Additional observations from a re-analysis of the deposited data

How the results depend on the processing

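The replicate numbers did not pair the samples: deviations of same-numbered libraries correlated between -0.29 and 0.27 over 18 pairs, and 4 of 12 libraries correlated best with their own number. Of the log2 fold changes of the 6 genes under the alternatives, 352 kept their direction and their call, and 7 became calls. A call needs both cutoffs except with FDR alone, where the fold changes are those of the main test. The 7 include *Scgb1a1* (0.59) and *Cbr2* (0.67) from P5 to P8 with FDR alone, which stayed short of the fold change cutoff. The FDR by itself changed its side of 0.05 in 19 of 342 cases, 7 of them *Cbr2* from P5 to P8, 5 *Cyp2f2* and 4 *Bpifa1* from E15.5 to E18.5. One reversed, *Scgb3a1* from P5 to P8, at -0.18 without E15.5 replicate 2 and P8 replicates 1 and 2 together (the 3 libraries below), an alternative chosen after seeing the data. The 6 calls from E18.5 to P5 and the calls of *Cyp2f2* and *Bpifa1* from P5 to P8 held with every single library left out. Counts of calls moved as follows, and the cause was not tested except where fewer libraries were used. Calls in either direction were counted. From E15.5 to E18.5, calls among club cell genes went from 1 to 2 with DESeq2 and to 2 with the replicate block. They ranged from 1 to 3 with single libraries left out. The 3 were *Scgb3a2*, *Cyp2f2* and *Bpifa1* without E15.5 replicate 1, and there were 2 without E15.5 replicate 3. In each of these alternatives *Bpifa1* was called lower (log2 fold changes from -6.41 to -5.61), whereas *Scgb3a2* and *Cyp2f2* were called higher where called. In the same interval secreted products went from 3 to 5 with DESeq2 and 1 with limma (1 to 5 with single libraries left out, with 1 without E15.5 replicate 1 or 3 or E18.5 replicate 1 and 5 without P8 replicate 3). Xenobiotic enzymes went from 2 to 7 with FDR alone and to 1 with limma, with only the 6 libraries compared and without the 3 libraries (1 to 3). Surface and keratin genes went from 1 to 4 with FDR alone and to 0 with limma and with only the 6 libraries compared (0 to 1), and regulators from 1 to 5 with FDR alone and 0 with limma. From E18.5 to P5, FDR alone took surface and keratin genes from 4 to 7 and regulators from 7 to 13. From P5 to P8, FDR alone took club cell genes from 2 to 4, surface and keratin genes from 3 to 7 and regulators from 4 to 10, and regulators were 2 with the replicate block and 2 with limma. Without the 3 libraries, secreted products went from 7 to 2 (3 to 9 with single libraries left out, with 3 without P5 replicate 1 or 3, 4 without P8 replicate 1 or 2 and 9 without P8 replicate 3), xenobiotic enzymes from 10 to 1 (5 to 10, with 5 without P5 replicate 3 and 6 without P8 replicate 2), surface and keratin genes from 3 to 1, and regulators from 4 to 1 (1 to 5, with 1 without P5 replicate 3 or P8 replicate 1 or 2, and 2 without P5 replicate 2). Over all genes, limma called 150 against 487 from E15.5 to E18.5 and 286 against 474 from P5 to P8. With single libraries left out, the count from P5 to P8 ranged from 210 without P8 replicate 2 to 711 without P8 replicate 3, and without the 3 libraries it was 91. Depth limits *Bpifa1* before birth, with 80 reads over the E15.5 libraries and 1 over the E18.5 libraries. Its log2 fold change from E15.5 to E18.5 was -5.85 and not called, and it was -2.87 without E15.5 replicate 2.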
